A study of Saccharomyces cerevisiae with 5 samples.

Results

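The 43 genes described here encode the bromodomain protein Bdf1 and the machinery it works with. They are BDF1 and its paralogue BDF2, the 15 subunits of TFIID (TAF1 to TAF14 and SPT15) and 12 subunits of the SWR1 complex. The others are 11 histone deacetylases, deacetylase partners and Sir proteins, and ESA1, EPL1 and GCN5 of acetyltransferase complexes. The 43 genes were listed by systematic reading-frame name and not by a measured value, though earlier results of these data were known when the list was chosen. All 43 have a probe among the 6388 gene probes of the array. Expression was measured in Saccharomyces cerevisiae on 5 oligonucleotide arrays, each hybridised with 2 strains in Cy5 and Cy3. All cultures had been kept in 0.5 mol/L NaCl for 45 min, so no value separates the effect of salt. A deletion mutant of BDF1, bdf1Δ, was compared with the laboratory strain W303 on 1 array, the mutant carrying Cy5. The same mutant then served as reference for bdf1Δ+HAL2, which carries added HAL2, and for the double mutant bdf1Δhda1Δ, which also lacks HDA1. Each of these comparisons was hybridised on 2 arrays, between which the dyes were exchanged. The labels do not say how HAL2 was supplied or how many clones of a strain were used. HAL2 encodes a salt-sensitive phosphatase and is listed as MET22 in the gene table.

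TFIID is the general transcription factor that brings the TATA-binding protein, encoded by SPT15, to promoters, and many of its TAF subunits pair through histone folds. Bdf1 binds acetylated histone H4 through its bromodomains, associates with TFIID through Taf7, and is also a subunit of SWR1, the remodelling complex that exchanges histone H2A for the variant Htz1. Acetyltransferases such as Esa1, the catalytic subunit of NuA4, make the acetyl marks that bromodomains read, and deacetylases such as Hda1, Rpd3 and Sir2 remove them.

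Each exchanged pair repeats the same 2 RNA samples and was counted as 1 replicate, so there is no biological replication anywhere and nothing was tested. Values are log2 ratios, test over reference, after global loess normalisation. They are therefore relative to genes of similar intensity on the same array, and can differ from the ratio of the net intensities. Where a pair was run, the SD is the spread of its arrays, and on the single array it is that of the repeat spots of the gene. It covers technical variation only. A gene counted as past 2-fold when every array of the comparison exceeded 2-fold the same way, as the labels prescribe. Each culture is a bulk sample, so a change in some cells and a smaller change in all of them cannot be told apart.

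All 43 genes were above background in W303, but only 12 of them in bdf1Δ on the same array. A gene is called above background in a channel when at least 2 of its 3 spots exceeded the local background by 2 background SDs. The 12 genes, 27.9% of the list, were TAF3, TAF4, TAF7, TAF8, TAF11, TAF12, TAF14, SWC4, VPS71, RVB1, RPD3 and SIN3. The bdf1Δ channel of that array was dim for the genome as a whole, with 36.8% of all genes above background against 91.6% in the W303 channel. The same mutant gave brighter channels on the other arrays. On array 1 of the bdf1Δ+HAL2 pair, 42 of the 43 genes were above background in bdf1Δ+HAL2 (97.7%, beside 90.7% of all genes). In bdf1Δ it was 33 (76.7%, beside 70.3%). On array 2 it was 33 in bdf1Δ+HAL2 (76.7%, beside 68.5%) and 41 in bdf1Δ (95.3%, beside 87.4%). In the bdf1Δhda1Δ pair the counts on array 1 were 36 in bdf1Δhda1Δ (83.7%, beside 75.6%) and 18 in bdf1Δ (41.9%, beside 42.2%). On array 2 they were 26 in bdf1Δhda1Δ (60.5%, beside 52.2%) and 35 in bdf1Δ (81.4%, beside 75.7%). On all 4 arrays of the pairs the Cy5 channel showed more of the listed genes, and of all genes, than the Cy3 channel, whichever strain it held.

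**Figure D1:**
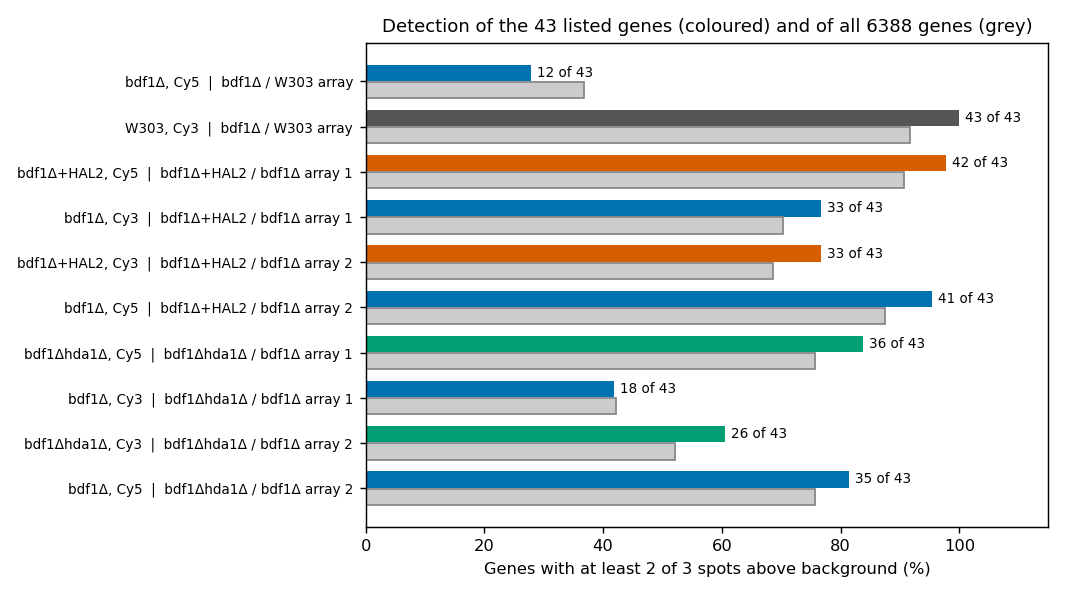
Share of genes above background in each channel, in percent, for the 43 genes (coloured bars, one colour per strain, with counts) and for all 6388 genes (grey bars). The bdf1Δ channel of the array against W303 showed 12 of the 43 genes and the W303 channel showed 43.

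A ratio was taken only where the image software had found at least 2 of the 3 spots on every array. That left 26 of the 43 genes (60.5%) measured in bdf1Δ against W303, 33 (76.7%) in bdf1Δ+HAL2 against bdf1Δ, and 10 (23.3%) in bdf1Δhda1Δ against bdf1Δ. Over all genes the shares were 57.7%, 66.8% and 32.5%. TAF4, TAF5, TAF12, TAF14, SPT15, ARP4, RVB1, RVB2 and HST1 were the 9 genes measured in all 3 comparisons. Another 9 were measured in none, namely SWC3, SWC5 and SWC7 of SWR1, the deacetylase genes HDA1, HOS1, HOS2 and SIR2, the silencing gene SIR4, and GCN5, which encodes the acetyltransferase of SAGA. Several catalytic subunits of the list were thus not covered. SWR1, the ATPase gene, and EPL1, which encodes a scaffold of NuA4, gave a ratio only in the bdf1Δ+HAL2 pair.

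BDF1 (YLR399C) signal was present in W303 and at background in every strain that lacks the gene. Its median net spot intensity was 510 in W303, where all 3 spots exceeded background, and 10 in bdf1Δ, where none did. In the other 8 channels, all from strains lacking BDF1, it lay between −218.5 and 15, and no spot exceeded background in any of them. These 9 channels therefore show nothing against their labels, but the dim bdf1Δ channel against W303 cannot show the deletion by itself. TAF10, which read 474 in W303, was at background there too, at 17. The normalised log2 ratio of bdf1Δ over W303 was only −0.80 ± 0.20 (SD of repeat spots), short of 2-fold, and 22.2% of the 3688 measured genes were lower. After normalisation within each printing block (print-tip loess) the ratio was −1.01, past 2-fold. In the authors' deposited table the BDF1 ratio on this array was 0.0121, the lowest of the 43 genes, and 0.643% of all probes were lower. The ratio of the deleted gene thus ranged widely between these treatments of the same spots.

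BDF2 (YDL070W), which encodes the paralogue that shares part of the work of Bdf1, was not past 2-fold in either pair. It was lower in bdf1Δ+HAL2 than in bdf1Δ on both arrays, with log2 ratios of −0.26 and −0.74 and a mean of −0.50 ± 0.34 (SD of the 2 arrays). This was the lowest value among the 33 measured genes, and 6.63% of all measured genes were lower still. The net intensity on array 1 was 3646 in bdf1Δ+HAL2 and 3762 in bdf1Δ. On array 2 it was 1842 in bdf1Δ+HAL2, read in Cy3, and 3740.5 in bdf1Δ. Net intensities are not normalised between channels or arrays, so they do not show which channel made the arrays differ. In bdf1Δhda1Δ the same gene was higher than in bdf1Δ on both arrays, by 0.39 and 0.36, with a mean of 0.37 ± 0.02. That was the highest value among the 10 measured genes, and 92.3% of all measured genes were lower. Net intensities there were 2838 in bdf1Δhda1Δ and 1899 in bdf1Δ on array 1, and 3200 and 2915.5 on array 2. The authors' deposited table gives the same directions, with ratios of 0.7325 and 0.668 in the bdf1Δ+HAL2 pair and 1.39 and 1.41 in the bdf1Δhda1Δ pair. Both comparisons share bdf1Δ as their reference. BDF2 was not measured against W303, where its net intensity was 154 in W303 and 39, at background, in bdf1Δ.

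HDA1 (YNL021W), the deacetylase gene deleted in the double mutant, was too dim for a ratio anywhere, and the image software found none of its spots on any array. It exceeded background in neither channel of bdf1Δhda1Δ, with net intensities of 15 in Cy5 and −23 in Cy3. On the same arrays bdf1Δ gave 23 in Cy3, with no spot above background, and 187 in Cy5, with 2 spots above background. Against W303, the gene read 171 in W303, above background on 3 spots, and 31 in bdf1Δ, on none. In the bdf1Δ+HAL2 pair it read 317 in bdf1Δ+HAL2 and 184 in bdf1Δ on array 1, and 188 in bdf1Δ+HAL2 and 155 in bdf1Δ on array 2. The signal was thus seen in W303, bdf1Δ+HAL2 and bdf1Δ in at least 1 channel each, and not in bdf1Δhda1Δ. MET22, the HAL2 gene, was higher in bdf1Δ+HAL2 than in bdf1Δ by 3.73 ± 0.15.

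**Figure D2:**
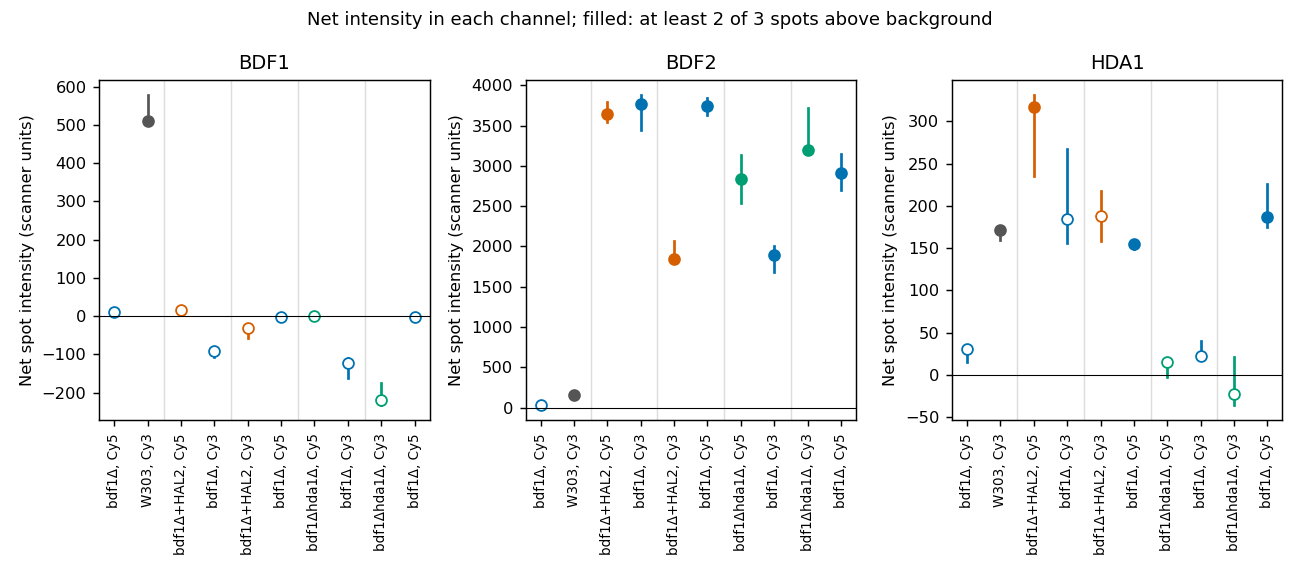
Net spot intensity (scanner units, spot minus local background) of BDF1, BDF2 and HDA1 in each channel, as the median of 3 spots with their range. Points are filled where at least 2 of 3 spots exceeded background. BDF1 is filled in W303 alone, at 510, and HDA1 is open in both bdf1Δhda1Δ channels.

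In bdf1Δ against W303, 7 of the 26 measured genes were past 2-fold higher (26.9%, beside 15.9% of all measured genes) and 6 past 2-fold lower (23.1%, beside 18.4%). The higher genes were TAF3, TAF4, TAF11, TAF12, TAF14, RPD3 and SIN3. The lower genes were TAF8, TAF9, TAF13, ARP4, RVB1 and HOS3. A spot needed to exceed background in only 1 channel, and 15 of the 26 genes were at background in bdf1Δ. Of the lower genes TAF9, TAF13, ARP4 and HOS3 were among these 15, and so entered through W303 alone. With both channels required above background, 11 genes were left. Of these 11, 7 were past 2-fold higher (beside 26.4% of all genes so measured) and 2 lower, TAF8 and RVB1 (beside 13.2%). This filter drops genes dim in bdf1Δ and so favours higher ratios, and these counts are no support for a change. For a gene at background in bdf1Δ the ratio is a processed value and not a measured fold. Such genes are described as at background, with a bound where one could be had. Each bound printed below equals the smaller of the global loess and print-tip loess ratios. It thus restates a processed ratio of dim spots and is not separate evidence of a direction. The median over the 26 genes was −0.12, beside −0.00 over all genes. These counts followed the position of the spots. All 7 higher genes were printed in blocks with a positive median ratio and all 6 lower genes in blocks with a negative one. The block of RVB1 was near 0, at −0.04. The ratios of the 26 genes correlated with their block medians across genes (Pearson's r = 0.776, n = 26, from 1 array, given as a description). Position mattered for the whole array, as 35.8% of the variance over all gene spots used lay between blocks. None of this is therefore a result about the list. After print-tip loess 1 gene was past 2-fold higher, RVB2 at 1.21 (5.94% of all measured genes), and 1 lower, BDF1 at −1.01 (6.18%), so that none of the 13 stayed past 2-fold. RVB2 and BDF1 were both at background in bdf1Δ. Whether the block or the strain sets these ratios cannot be told apart for a single gene on this array.

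Among the TFIID genes, 12 of 15 were measured against W303, with 5 past 2-fold higher and 3 lower (41.7% and 25%, beside 15.9% and 18.4% of all measured genes), and 0 of 12 in either direction after print-tip loess. TAF12 was highest at 1.68 ± 0.41, with a net intensity of 531 in bdf1Δ and 439 in W303, and 0.999 after print-tip loess. Its histone-fold partner TAF4 stood at 1.36 ± 0.35, from 1661 in bdf1Δ and 1248.5 in W303, and at 0.93 after print-tip loess. Taf12 is also a subunit of the coactivator SAGA, and both genes gave clear signal in both channels. TAF3, whose product pairs with Taf10, stood at 1.49 ± 0.08, from 1029 and 846.5, and at 0.97 after print-tip loess. TAF11, whose product pairs with Taf13, stood at 1.31 ± 0.65, from 399 and 512, and at 0.94. TAF14, which encodes a YEATS-domain protein found in several chromatin complexes, stood at 1.20 ± 0.18, from 1085.5 and 1078, and at 0.62. All 5 genes were above background in bdf1Δ as well as W303, and all kept a positive ratio within their block.

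Of the 3 TFIID genes past 2-fold lower, TAF9 and TAF13 were at background in bdf1Δ and TAF8 was above it on all 3 spots. TAF9, encoding the partner of Taf6, stood at −1.24 ± 0.64, from 54 in bdf1Δ and 1099.5 in W303, and at −0.72 after print-tip loess. TAF8 stood at −1.06 ± 0.01, from 121 and 1201.5, but at 0.45 after print-tip loess, the one gene of the 13 that changed sign. TAF13 stood at −1.03 ± 0.04, from 44 and 788, and at −0.43. For TAF9 and TAF13 bounds are also given, W303 at least 1.65-fold higher for TAF9 and at least 1.35-fold for TAF13. A bound sets the W303 level against the dim spots' own level or the lowest level seen above background, whichever is higher. Here the dim spots' own level was used, so both bounds restate the print-tip loess ratios. The remaining measured TFIID genes were within 2-fold, and all 4 were at background in bdf1Δ. SPT15 stood at −0.20, from 77 in bdf1Δ and 567.5 in W303, with W303 at least 1.15-fold higher. TAF2, whose product contacts core promoter DNA, read 18 in bdf1Δ and 187 in W303, TAF5, a WD-repeat subunit shared with SAGA, read 33.5 and 533.5, and TAF10 read 17 and 474. No bound could be had for these, so no direction is given.

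Of the SWR1 genes, 7 of 12 were measured against W303. None was past 2-fold higher (beside 15.9% of all measured genes) and 2 were lower (28.6%, beside 18.4%). After print-tip loess 1 of 7 was higher, RVB2, and none lower (beside 5.94% and 6.18% of all measured genes). ARP4, which encodes an actin-related protein shared with NuA4 and INO80, was the lowest of all 26 genes at −1.30 ± 0.07, from 34.5 in bdf1Δ and 859.5 in W303. It stood at −0.09 after print-tip loess, its block having a median of −0.92, and the bound for W303 was only 1.07-fold higher at least. RVB1, which encodes one of a pair of AAA+ ATPases, stood at −1.16 ± 0.18, from 112 and 1243, and at −0.92 after print-tip loess. Its block median was −0.04, and all 3 spots were above background in both strains. RVB2, encoding the partner ATPase, read 117 in bdf1Δ, with no spot above background, and 517.5 in W303. Its ratio of 0.20, and of 1.21 after print-tip loess, therefore gives no direction. SWC4 was at 0.99, just within 2-fold, and VPS71 at 0.58, both above background in both strains. YAF9, with 15.5 in bdf1Δ and 270.5 in W303, and ARP6, with 10 and 334.5, were at background in bdf1Δ and had no bound. HTZ1, the gene of the histone variant that SWR1 deposits, was at background in bdf1Δ too, at 63 beside 1027 in W303. Its ratio was −1.26, and −0.24 after print-tip loess, with W303 at least 1.18-fold higher.

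Among the deacetylase and Sir genes 5 of 11 were measured against W303. SIN3, which encodes a scaffold of the Rpd3 complexes, stood at 1.16 ± 0.05, from 162 in bdf1Δ and 329 in W303, and RPD3, the catalytic subunit, at 1.12 ± 0.24, from 305 and 469. After print-tip loess they were at 0.13 and 0.18, beside block medians of 1.22 and 0.95. HOS3, encoding a deacetylase of the Hda1 class, stood at −1.18 ± 0.18, from 46.5 and 876.5, and at −0.86 after print-tip loess, with W303 at least 1.81-fold higher. It was at background in bdf1Δ, as were HST1 and HDA2, for which no bound could be had. HST1, encoding a paralogue of Sir2, read 82.5 in bdf1Δ and 396.5 in W303, and HDA2, a subunit of the Hda1 complex, read 10 and 264.5. HDA3, which completes that complex and is outside the list, read 70 and 273.5, and ESA1, the only acetyltransferase gene measured, 31 and 571, both also at background in bdf1Δ.

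**Figure D3:**
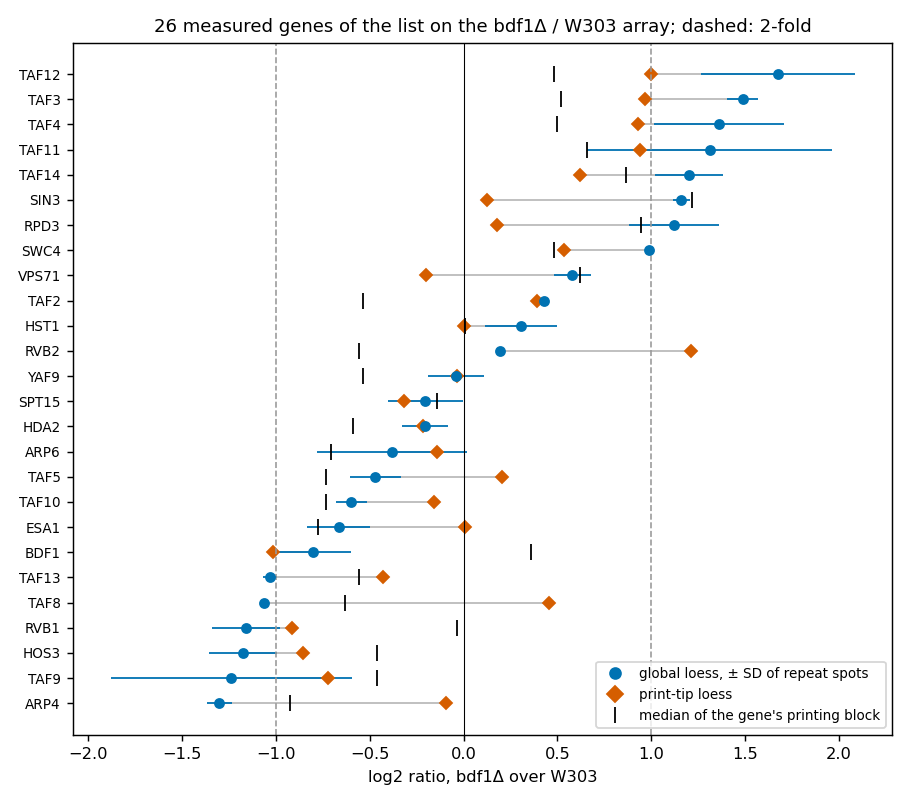
Log2 ratio of bdf1Δ over W303 for the 26 measured genes after global loess (blue, with the SD of repeat spots), after print-tip loess (orange) and as the median of the gene's printing block (black tick). Dashed lines mark 2-fold, and 15 of the 26 genes were at background in bdf1Δ. The genes at the top sit in blocks with positive medians and most of those at the bottom in blocks with negative medians.

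In bdf1Δ+HAL2 against bdf1Δ no gene of the list was past 2-fold. The counts were 0 of 33 higher, beside 0.445% of all measured genes, and 0 of 33 lower, beside 1.03%. Using spots whether found or not, they were 0 of 41, beside 0.379% and 0.938%. At such background shares a count of 0 is not a result about the list. The sizes were small throughout. The median was 0.00, as over all genes, the largest value was the 1.41-fold difference of BDF2, and 27 of 33 genes (81.8%) lay within 0.25 of no difference on the log2 scale, beside 66.1% of all measured genes. A ratio had the same sign on both arrays for 15 of the 33, and its size exceeded the SD of the arrays for 13. The matching shares over all genes are not given, so these counts are not a result about the list.

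All 15 TFIID genes were measured in this pair, and their means ran from −0.14 to 0.14 with a median of 0.03. TAF5 and TAF4 were the highest of them at 0.14 each and TAF7, whose product binds Bdf1, the lowest at −0.14 ± 0.27, with −0.33 on array 1 and 0.06 on array 2. TAF6 repeated most closely, at 0.10 on both arrays. TAF3, TAF4, TAF11, TAF12 and TAF14, the 5 genes past 2-fold higher against W303, lay here between −0.09 and 0.14. No TFIID gene thus approached 2-fold when HAL2 was added to the mutant.

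ARP4 was the highest of the 33 genes in this pair at 0.47 ± 0.15, with 0.58 on array 1 and 0.36 on array 2, and 94.4% of all measured genes were lower. Its net intensity was 2993 in bdf1Δ+HAL2 and 1661 in bdf1Δ on array 1, and 1739.5 and 1515 on array 2. ARP6, which encodes another actin-related protein and is part of SWR1, was next to lowest at −0.29 ± 0.41. It stood at −0.00 on array 1, from 1054 in bdf1Δ+HAL2 and 856 in bdf1Δ, and at −0.58 on array 2, from 230 and 457, where the bdf1Δ+HAL2 channel was at background on all 3 spots. After print-tip loess the arrays gave −0.13 and −0.19. The other SWR1 genes lay between −0.11 for RVB1 and 0.13 for SWR1.

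HDA2 and RPD3 came next after ARP4 among the 33. HDA2 stood at 0.29 on array 1 and 0.32 on array 2, a mean of 0.31 ± 0.02, from 1809 in bdf1Δ+HAL2 and 1170 in bdf1Δ and then from 964 and 844. RPD3 stood at 0.20 and 0.40, a mean of 0.30 ± 0.14, from 679 and 479.5 and then from 506 and 415. Both were higher in bdf1Δ+HAL2 on each array, HDA2 by nearly the same amount and RPD3 by more on array 2. SIR3, which encodes a structural protein of silent chromatin, was lowest after BDF2 and ARP6, at −0.25 ± 0.17, with −0.37 on array 1, from 1366 and 1479, and −0.13 on array 2, from 754 and 913. SIN3 was at −0.09, HOS3 at −0.12 and HST1 at −0.03. ESA1 and EPL1, both of NuA4, were at −0.10 and −0.09, each positive on array 1 and negative on array 2.

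In bdf1Δhda1Δ against bdf1Δ again no gene was past 2-fold. The counts were 0 of 10 higher, beside 1.06% of all measured genes, and 0 of 10 lower, beside 0.627%. With spots used whether found or not, they were 0 of 33, beside 0.644% and 0.279%. The median was 0.08, beside 0.01 over all genes, and 9 of 10 genes lay within 0.25 of no difference, beside 74.3% of all measured genes. Only BDF2, above, lay outside that range.

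RVB2 followed BDF2 at 0.21 ± 0.03, from 1921 in bdf1Δhda1Δ and 1360 in bdf1Δ on array 1 and from 2130.5 and 2106 on array 2. TAF4 came next at 0.12 ± 0.01, from 1199 and 860.5 and then from 1546 and 1616, and its partner gene TAF12 was at 0.06. RVB1 stood at 0.11 and TAF14 at 0.08. ARP4 stood at 0.05 ± 0.10, from 1144 in bdf1Δhda1Δ and 943 in bdf1Δ on array 1 and from 1263 and 1573 on array 2. HST1, the only deacetylase gene measured, stood at 0.08 ± 0.36, negative on array 1 at −0.17 and positive on array 2 at 0.33, from 1116 in bdf1Δhda1Δ and 1030 in bdf1Δ and then from 1372 and 1181. TAF5 stood at −0.00, from 1785.5 and 1367.5 and then from 2356 and 2803. SPT15, encoding the TATA-binding protein, was lowest at −0.04 ± 0.06, from 1120 and 1032 and then from 1452 and 1705. For 5 genes, TAF14, HST1, ARP4, TAF5 and SPT15, the mean was smaller in size than the SD of the arrays. The matching share over all genes is not given.

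**Figure D4:**
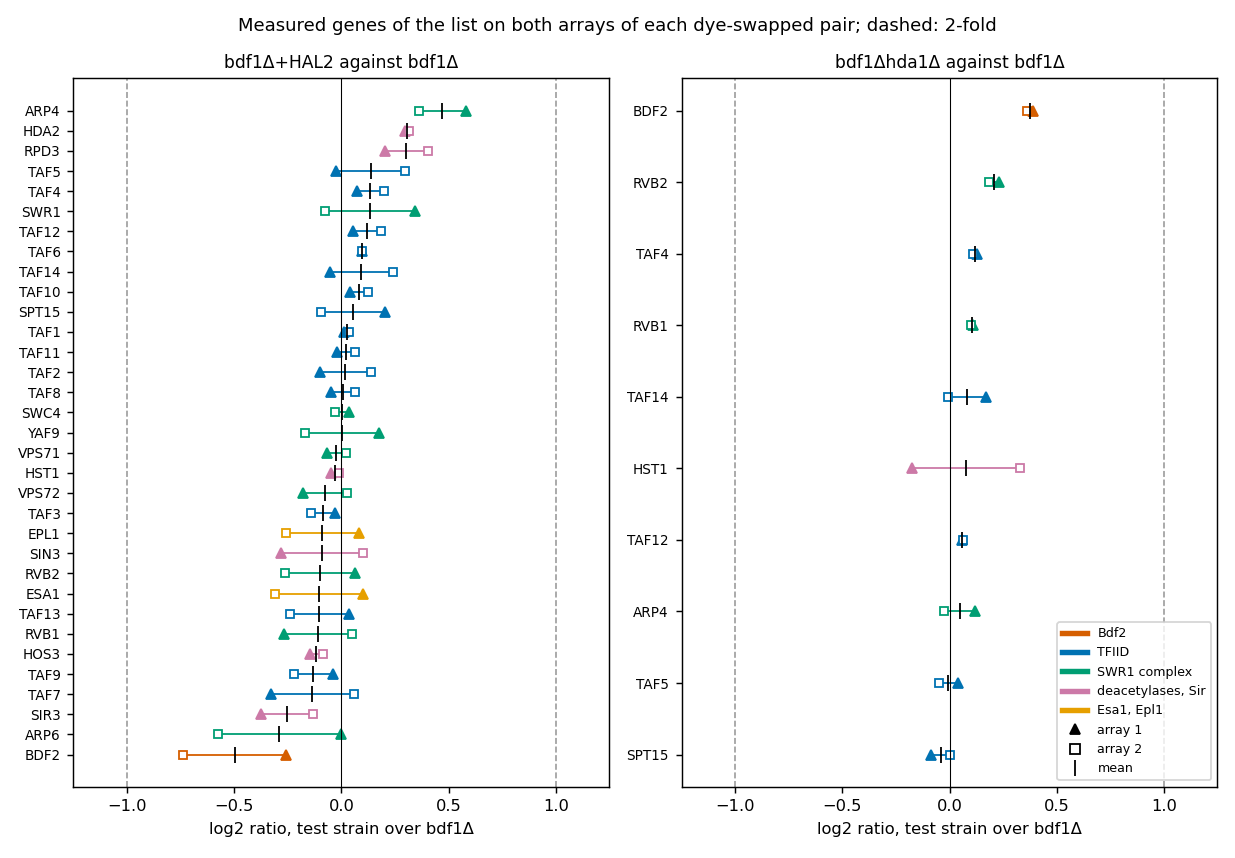
Log2 ratio of each measured gene on array 1 (triangle) and array 2 (square) of both dye-exchanged pairs, with the mean as a black bar and colours for the complexes. Dashed lines mark 2-fold. All points of both pairs lie inside the dashed lines, with BDF2 lowest in the left panel and highest in the right panel.

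Spots that the image software had not found were read with a dye difference, which limits what they can add. In the bdf1Δhda1Δ pair a further 23 genes had a ratio from such spots, and 22 of them read higher in whichever strain was in Cy5, by a median of 0.56 between the arrays. Over all genes of this kind the share was 95.0%. In the bdf1Δ+HAL2 pair 5 of 8 such genes read higher in Cy5, beside 69.1% of all genes of this kind. Among genes never measured otherwise, SIR2 gave 0.63 and 0.30 on the arrays of the bdf1Δ+HAL2 pair, HOS2 gave 0.45 and 0.06, HDA1 gave 0.02 and 0.24, and SWC5 gave 0.16 on each. SWC3 gave 0.43 and −0.72, SWC7 gave −0.12 and −0.97, SIR4 gave 0.02 and −0.23, and GCN5 gave −0.04 and 0.09, so directions were mixed. HOS1 gave no ratio in either pair. Against W303, the genes left without a ratio gave values from 0.41 for SWR1 to 1.63 for TAF7 when spots not found were used. All of them were positive, but no share over all genes of this kind is given, so this is not a result about the list. On this array bdf1Δ was in Cy5 and the dyes were not exchanged. A strain difference and the dye difference of spots not found therefore cannot be told apart here. TAF7 alone among them was above background in bdf1Δ, with a net intensity of 128, beside 215 in W303. No direction is given for the others.

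The 9 genes measured in all 3 comparisons can be set side by side, with the reminder that bdf1Δ is test strain in the first and reference in the others. ARP4 stood at −1.30 in bdf1Δ against W303, 0.47 in bdf1Δ+HAL2 against bdf1Δ and 0.05 in bdf1Δhda1Δ against bdf1Δ. RVB1 stood at −1.16, −0.11 and 0.11, and RVB2 at 0.20, −0.10 and 0.21. The first values of ARP4, RVB2, TAF5, SPT15 and HST1 come from genes at background in bdf1Δ on that array, and that of ARP4 was −0.09 after print-tip loess. For TFIID, TAF12 stood at 1.68, 0.12 and 0.06, TAF4 at 1.36, 0.14 and 0.12, and TAF14 at 1.20, 0.09 and 0.08. TAF5 stood at −0.47, 0.14 and −0.00, SPT15 at −0.20, 0.05 and −0.04, and HST1 at 0.31, −0.03 and 0.08. In the pairs all of these values but the 0.47 of ARP4 lay within 0.25 of no difference.

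Related subunits outside the list were counted in the same way, 54 genes of SAGA, NuA4, the Rpd3 and Set3 complexes, INO80 and the general transcription factors. Against W303, 37 were measured, with 5 past 2-fold higher and 3 lower (13.5% and 8.11%, beside 15.9% and 18.4% of all measured genes). The higher genes were SPT20 at 1.10 and SGF11 at 1.12 of SAGA, SET3 at 1.04, TFG1 of TFIIF at 1.45 and IES5 of INO80 at 1.57. The lower genes were TOA2 of TFIIA at −1.65, CTI6 of an Rpd3 complex at −1.49 and TFA1 of TFIIE at −1.47, the last 2 at background in bdf1Δ with W303 at least 1.10-fold and 1.03-fold higher. After print-tip loess only IES5 at 1.44 and TOA2 at −1.87 were past 2-fold. In the bdf1Δ+HAL2 pair 0 of 42 measured genes were past 2-fold, beside 0.445% of all genes higher and 1.03% lower, and in the bdf1Δhda1Δ pair 0 of 12, beside 1.06% and 0.627%.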

How the data were processed

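Total RNA was cleaned, amplified and labelled with Cy5 and Cy3, per the labels' protocols. The deposited scanner files give, for both channels, spot and local background intensity, per the file headers. Which image software and scanner were used is not given in the sources used here. The authors' deposited ratio per probe comes from another table. It followed test over reference strain on all 5 arrays (r from 0.806 to 0.937 with the scanner ratios). Its medians were 0.195, 1.01, 0.992, 1.04 and 1.01, so the first column is not centred, and how the others were centred is unknown. It served as an alternative only, and none of its columns was left unused.

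Spot and background medians were corrected by normexp (offset 50) and normalised within each array by global loess in limma 3.58.1 (R 4.3.3), with weight 0 for control spots and spots not found. A spot was used when it was found and at least 1 channel exceeded background by 2 background SDs. A gene needed 2 of 3 such spots on every array, and its value is their mean. Python 3.11.15 served for all later steps, with pandas 2.3.3, NumPy 2.4.6 and matplotlib 3.10.9. The gene probes carry reading-frame names, and all 43 genes matched a symbol in the R64 gene table. The files name no genome build and no sequences were at hand, so none are given, and cross-hybridisation was not examined. The scripts were tested on simulated data. The number of arrays limits the precision.

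Samples were grouped by their labels. Net intensities are given for BDF1, BDF2, HDA1, listed genes past 2-fold, and the 3 highest and 3 lowest genes of each comparison. The 43 genes and the related lists were chosen with earlier results of these data known. Alternatives were print-tip loess, no background subtraction, scaling between arrays, other spot filters, the authors' deposited ratio and leaving out 1 array of a pair.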

Additional observations from a re-analysis of the deposited data

How the results depend on the processing

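Each comparison rests on 1 RNA sample per strain. No paired analysis was possible because the numbered arrays of a pair repeat the same RNA samples and no test was made. In bdf1Δ against W303, the 13 genes past 2-fold became 2 after print-tip loess, 0 after scaling between arrays, which shrinks every ratio of this array, and 20 with spots found or not (14 higher, 6 lower). They were 10 without background subtraction, 9 with both channels above background, 12 with all 3 spots and 19, all lower, in the authors' deposited ratio, which is not centred on this array. Over all genes, 587 higher and 679 lower became 219 and 228 after print-tip loess and 2 and 28 with scaling. They were 1247 and 682 with spots found or not and 559 and 280 with both channels above background. In the authors' deposited ratio they were 31 and 2873. Counts over all genes are not given without background subtraction or with all 3 spots, so the 10 and 12 are not results about the list. The median of the measured genes moved from −0.12 to 0.58 with spots found or not, 1.16 with both channels above background, which drops genes dim in bdf1Δ, −0.38 with all 3 spots and −3.33 in the authors' deposited ratio. TAF8 reversed to 0.45 after print-tip loess. In the authors' deposited ratio TAF12 (−0.74), TAF4 (−0.16), RPD3 (−0.55), SIN3 (−0.70) and TAF14 (−0.0158) fell below 0. That column has a median log2 ratio of −2.36, so this is no reversal against other genes. In it these genes lay above 87.4%, 94.2%, 89.8%, 88.0% and 95.7% of all probes, in that order. Counts of 0 in both pairs held under every alternative, though over all genes scaling gave 32 higher and 63 lower in the bdf1Δ+HAL2 pair, and 45 and 36 in the bdf1Δhda1Δ pair. The bdf1Δ+HAL2 median moved to −0.0261 after print-tip loess and ran from −0.00328 to 0.028 without one array. The bdf1Δhda1Δ median moved to 0.12 with scaling, 0.0263 with spots found or not and 0.15 in the authors' deposited ratio, and ran from 0.0815 to 0.116 without one array. Where no cause is given here, the cause was not tested. Dimness limits the bdf1Δ channel against W303 and the catalytic subunits measured nowhere.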
